A study of Mus musculus with 4 samples.

Results

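The genes described here are 10 genes of MHC class I antigen presentation, chosen by symbol: the classical heavy chains H2-K1 and H2-D1, the light chain B2m, the transactivator Nlrc5, the immunoproteasome subunits Psmb8 and Psmb9, and the peptide loading genes Tap1, Tap2, Tapbp and Erap1. The array annotation gave these symbols alone to 28 of 45101 probe sets, and the 10 genes are among 18193 with a probe set of their own. A further 3 probe sets listed a heavy chain together with other symbols and were set apart.

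The cells were J558, a BALB/c plasmacytoma line of the H-2d type, which secretes IgA. A vector expressing a sequence against AID, the cytidine deaminase of somatic hypermutation and class switching, was introduced together with a Neo vector, and G418-resistant clones were selected. Control clones received the empty vector and the Neo vector, so all 4 clones carry Neo and passed through G418. RNA of 2 control and 2 AID-silenced clones was hybridised to Affymetrix Mouse 430 2.0 arrays, 1 array per clone. The sample titles sort them into pair 1 and pair 2, with a clone of either kind in each pair. Each group is thus modelled by 2 selected clones, and differences between clones and effects of silencing share the same arrays.

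Class I molecules are a heavy chain paired with beta 2 microglobulin, and they display peptides from inside the cell to CD8 T cells. The proteasome cuts the peptides, TAP1 and TAP2 carry them into the endoplasmic reticulum, ERAP1 trims them there, and tapasin, the product of Tapbp, holds TAP and the empty class I molecule together for loading. Interferon exchanges catalytic proteasome subunits for PSMB8 and PSMB9, and NLRC5 acts with RFX, CREB and NF-Y proteins at the promoters of class I genes. Plasma cells and their tumours normally carry class I molecules on their surface.

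Values are MAS5 signals, a linear brightness per probe set, and all arrays had been scaled to the same trimmed mean. Median signals over all probe sets lay between 52.7 and 54.9. Differences are on the log2(signal + 16) scale, which understates those of dim genes. The 22519 probe sets in the brighter part of the array were tested, and these held 23 of the 28 class I probe sets and the brightest probe set of every one of the 10 genes. A gene is represented by that brightest probe set unless stated otherwise. All 8 measured plasma cell markers, Igha, Jchain and Sdc1 among them, exceeded every bacterial control probe set on each array. The highest bacterial control signal was between 27.3 and 41.9. Markers of other cells were dim, with summed signals of 81.2 to 190 over 5 T and NK cell genes, 364 to 506 over 6 myeloid genes and 536 to 616 over 5 stromal genes. Of the T and NK cell genes, Cd8a exceeded the highest bacterial control on all 4 arrays, at 33.6 to 85.2, Cd3e on both control arrays and Ncr1 on that of pair 1, while Cd3d and Cd4 did so on none. The brightest of all these markers, Pecam1 at 337 to 495 and Csf1r at 213 to 293, did not follow the clone order of the class I genes described below. Fcgr1 did follow it, with 51.3 and 77.7 in pair 1 and 29.8 and 43.9 in pair 2. Col3a1 also had lower signals in both clones of pair 2, with 34.8 and 39.1 in pair 1 and 20.1 and 12.4 in pair 2. No other marker of these cells had such a separation, and Fcgr1 and Col3a1 were too dim to be tested. Precision is limited by the number of arrays, with n = 2 per group, and p-values measure only the spread between these clones. Signals of a gene are given pair by pair, the control clone before the AID-silenced clone.

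In the data, 9 of the 10 genes had lower signals in both clones of pair 2 than in both clones of pair 1, and the control clone of pair 2 was the lowest of the 4 clones for all but Erap1. Over all 10475 tested genes these patterns were found for 29.3% and 30.2%. The class I genes were chosen with earlier results of these data known. Counts set beside such shares, here and below, are therefore a description and no test. AID-silenced and control clones were not separated for any of the 10 genes by the test. The heavy chain H2-K1 had signals of 15037 and 16508 in pair 1 and 4678 and 9451 in pair 2. H2-D1 had 17259 and 19028 in pair 1 and 5315 and 12673 in pair 2. For both heavy chains the order from low to high was the control clone of pair 2, the AID-silenced clone of pair 2, the control clone of pair 1 and the AID-silenced clone of pair 1, and the last 2 were within 0.15 log2 units of each other.

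**Figure D1:**
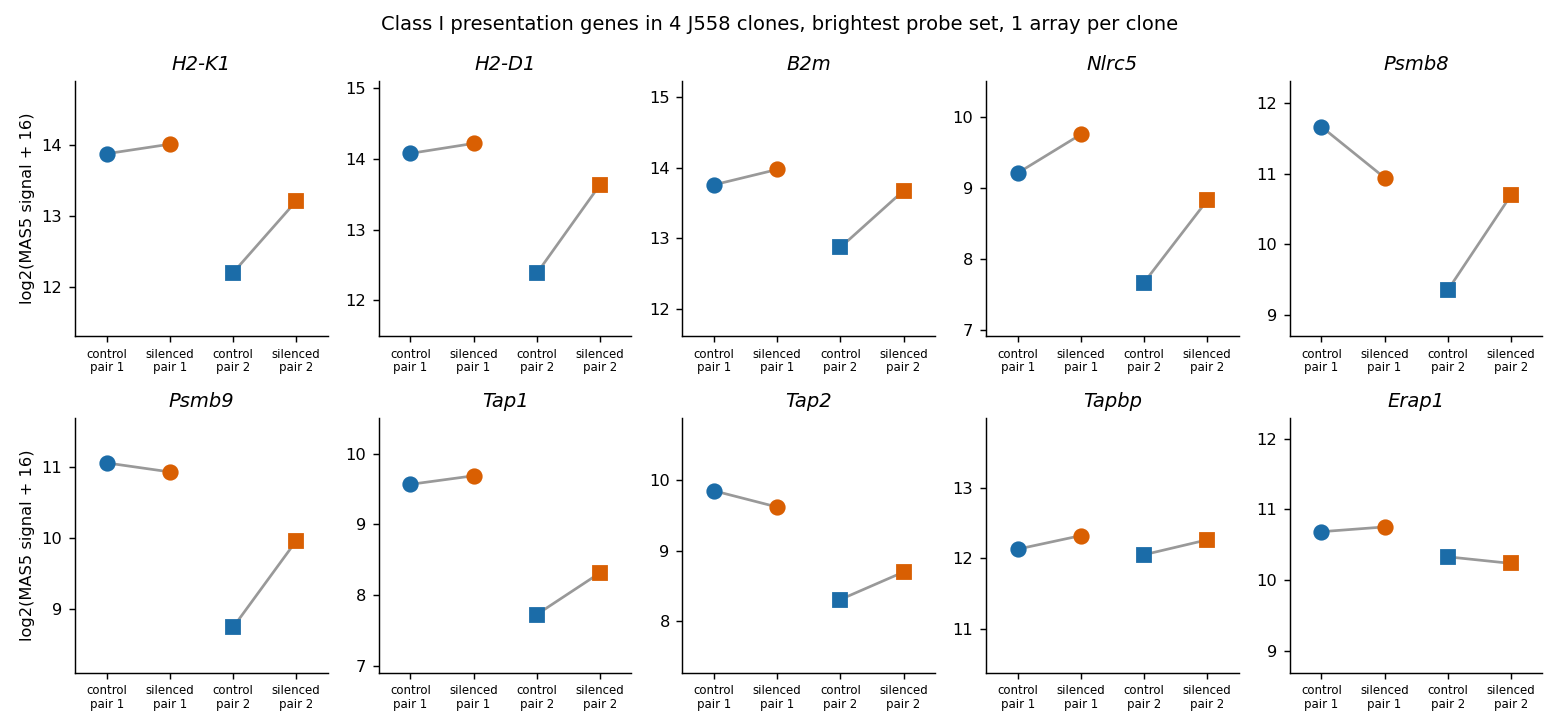
Log2(MAS5 signal + 16) of the 10 class I genes in each clone, 1 array per clone, with lines joining the clones of a pair, circles for pair 1, squares for pair 2, blue for control and orange for AID-silenced clones. Every panel spans the same height; the control clone of pair 2 is the lowest point in all panels but that of Erap1, and Tapbp differs least between clones.

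B2m, the light chain that every class I molecule needs to reach the surface, had signals of 13817 and 16057 in pair 1 and 7473 and 13047 in pair 2. Its second probe set gave 12615 and 14509 in pair 1 and 5662 and 9813 in pair 2. Both B2m probe sets placed the clones in the order seen for the heavy chains. Nlrc5, the transactivator, had signals of 578 and 852 in pair 1 and 188 and 439 in pair 2, again in that order.

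Of the 10 genes by brightest probe set, the immunoproteasome genes Psmb9 and Psmb8 differed most between the control clones, by 5.00-fold and 4.96-fold. Other probe sets of H2-D1 reached up to 6.73-fold. Psmb9, the subunit that replaces the caspase-like beta 1 subunit, had signals of 2120 and 1940 in pair 1 and 411 and 979.8 in pair 2. Psmb8, the subunit that replaces beta 5, had 3229 and 1954 in pair 1 and 638 and 1640 in pair 2. The AID-silenced clones of the pairs were close for Psmb8, while its control clones were far apart.

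Of the transporter genes, Tap1 had signals of 741 and 808 in pair 1 and 196 and 302 in pair 2. Tap2 had 904 and 769 in pair 1 and 301 and 399 in pair 2. Both transporter genes were lower in both clones of pair 2. Tapbp, which encodes tapasin, had 4473 and 5109 in pair 1 and 4234 and 4902 in pair 2, so that its pairs overlapped. Erap1, the trimming aminopeptidase, had 1630 and 1708 in pair 1 and 1271 and 1191 in pair 2, and here the AID-silenced clone of pair 2 was lowest.

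The regions upstream of the heavy chain genes and B2m, and the stretch shared by Psmb9 and Tap1, are shown. All of these genes had lower signals in both clones of pair 2. Psmb8 and Erap1 also did, and their regions are not printed. The sequences shown are RefSeq sequences of build GRCm38.p6, 5′ to 3′ on the gene's strand, from a C57BL/6J genome and therefore of another H-2 type than J558. Capitals mark 4 motifs searched on both strands, and some matches lie on the other strand, where they read as the reverse complement (ATTGG for CCAAT): GGGGATTCC, a core of NF-kB sites, GAANNGAAA, a spacing bound by interferon regulatory factors, TGACGC, a CRE-like core, and CCAAT, the NF-Y core. No match overlapped another. Each stretch ends at the base before the annotated start. The stretch between the divergent starts of Psmb9 and Tap1 is written on the strand of Tap1.
H2-K1, minus strand, chr17:34000348-34000597: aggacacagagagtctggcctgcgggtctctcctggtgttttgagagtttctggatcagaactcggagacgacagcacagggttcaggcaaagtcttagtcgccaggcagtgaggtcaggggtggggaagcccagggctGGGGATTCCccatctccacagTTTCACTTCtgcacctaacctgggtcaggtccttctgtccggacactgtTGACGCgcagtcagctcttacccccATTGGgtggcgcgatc
H2-D1, plus strand, chr17:35262844-35263093: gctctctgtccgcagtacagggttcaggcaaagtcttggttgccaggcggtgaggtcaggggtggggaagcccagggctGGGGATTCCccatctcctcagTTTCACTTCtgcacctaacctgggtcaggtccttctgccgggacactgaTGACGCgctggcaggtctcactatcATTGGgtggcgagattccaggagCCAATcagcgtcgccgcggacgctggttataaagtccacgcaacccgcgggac
Psmb9 and Tap1, plus strand, chr17:34187331-34187555: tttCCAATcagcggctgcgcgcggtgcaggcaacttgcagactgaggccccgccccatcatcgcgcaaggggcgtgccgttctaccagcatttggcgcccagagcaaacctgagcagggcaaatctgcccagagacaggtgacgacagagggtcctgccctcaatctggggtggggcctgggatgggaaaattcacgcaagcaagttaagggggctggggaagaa
B2m, plus strand, chr2:122147437-122147686: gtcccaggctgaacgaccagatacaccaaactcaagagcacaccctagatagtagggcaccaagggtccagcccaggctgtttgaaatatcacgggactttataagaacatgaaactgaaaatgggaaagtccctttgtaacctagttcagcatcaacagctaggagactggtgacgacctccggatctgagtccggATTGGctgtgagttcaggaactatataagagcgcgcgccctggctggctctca

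Of the 10 genes, 8 had an upstream sequence in the table, where H2-K1 has more than one start and the first listed is shown. H2-K1 and H2-D1 each held all 4 motifs, in the same order and with the same spacing: first bases lay 21 apart from GGGGATTCC to the interferon regulatory factor motif, 49 from there to TGACGC, and 25 from there to the next CCAAT match. Laid on each other at GGGGATTCC without gaps, the upstream stretches were identical at 166 of 190 bases (87.4%). Among 32851 upstream windows of 250 bases, GGGGATTCC was found in 0.213%, GAANNGAAA in 6.31%, TGACGC in 6.12% and CCAAT in 33.8%, and all 4 in 3 windows, which belong to H2-K1 and H2-D1. The spellings searched are the variants that the heavy chain stretches carry, and those stretches are alike. The share of windows with all 4 is therefore a description and no test. B2m and the stretch between Psmb9 and Tap1 held a CCAAT match and none of the other 3 motifs as spelled here. Variant spellings, such as gaaactgaaa in B2m and tgacga in both stretches, were not searched, so sites of these factors may be present. The windows of Psmb8 and Erap1 held none of the 4 motifs, and that of Tapbp held 2 CCAAT matches. A match describes the letters in these windows and was not linked to the signals by any test.

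Pair 2 was then set against pair 1, which the sample titles make possible. Averaged over the clones of a pair, 7 of the 10 genes were at least 2-fold lower in pair 2. Psmb8 was among them by its brightest probe set and not by the mean of its probe sets, where it was at −0.69. At the level of probe sets this held for 15 of 23, where the background over all tested probe sets was 3.69%. Both clones of pair 2 lay below both clones of pair 1 at 20 of the 23 class I probe sets, against a background of 26.2%. H2-K1 and H2-D1 hold 4 and 8 of the 23, so counts of probe sets include repeated readings of the same genes. The median difference of the 23 was −1.24 log2 units, and that of all tested probe sets was −0.04. Since each array measured RNA from a whole clone, fewer expressing cells and less RNA per cell cannot be told apart. The summed signal of the 8 plasma cell markers ran the other way, at 165535 and 181096 in pair 1 and 214311 and 210526 in pair 2, and its part in the result was not tested. Not every marker ran that way, since the pairs overlapped for Mzb1, Prdm1 and Sdc1.

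**Figure D2:**
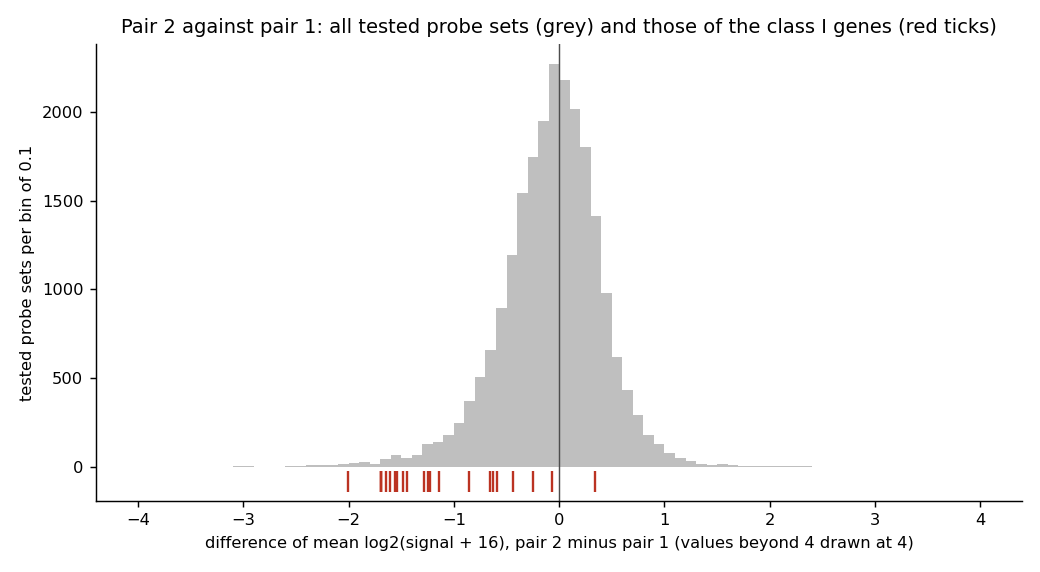
Differences of mean log2(signal + 16), pair 2 minus pair 1, as a histogram of all 22519 tested probe sets in bins of 0.1 (grey) with the 23 class I probe sets as red ticks below the axis. The class I ticks run from −2.01 to 0.34 and 15 lie at or below −1, while the histogram is centred near 0.

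No class I probe set passed the threshold in this comparison. Limma called 0 of 22519 probe sets at an adjusted p under 0.05, a background of 0%, and 3037 had an unadjusted p under 0.05, a background of 13.5%. Of the class I probe sets, 17 of 23 had an unadjusted p under 0.05. The clones of a pair are a control and an AID-silenced clone, not replicates of a condition. Standard errors and p-values of this fit therefore include the difference between those clones as spread. Tap1 differed by −1.61 ± 0.27 (SE, n = 2 per pair, limma adjusted p = 0.245), a 3.04-fold lower level in pair 2. Psmb9 differed by −1.65 ± 0.40 (adjusted p = 0.254 in the same limma fit), and Tap2 by −1.23 ± 0.24 (adjusted p = 0.245).

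The heavy chains differed by similar amounts, H2-K1 by −1.24 ± 0.32 (limma adjusted p = 0.263) and H2-D1 by −1.14 ± 0.40 (limma adjusted p = 0.335). Nlrc5 differed by −1.24 ± 0.42 and Psmb8 by −1.28 ± 0.48, with limma adjusted p = 0.320 and 0.344. Smaller differences were measured for B2m at −0.59 ± 0.27 and Erap1 at −0.43 ± 0.18, and Tapbp was at −0.07 ± 0.17 (limma adjusted p = 0.400, 0.363 and 0.882). The class I genes with the smallest differences between pairs were thus tapasin, which lies on chromosome 17 with the heavy chains, the trimming enzyme on chromosome 13 and the light chain on chromosome 2. With group as a term in the same fit, the lowest limma adjusted p over the class I probe sets was 0.112, for Tap1.

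Within the groups, the distance between the pairs was larger among the control clones than among the AID-silenced clones for 9 of the 10 genes. For Tapbp, counted among them, the log2 differences were nearly equal, at −0.08 and −0.06. The share over all tested genes was not computed. The control clone of pair 2, the lowest clone for all genes but Erap1, enters this count. Between control clones H2-K1 was 3.21-fold lower in pair 2 and H2-D1 3.24-fold. Between AID-silenced clones the log2 differences were −0.80 for H2-K1 and −0.59 for H2-D1. Psmb8 was 4.96-fold lower in pair 2 between control clones and 1.19-fold lower between AID-silenced clones. Tap1 was 3.58-fold and 2.59-fold lower. Erap1 was the exception, at 1.28-fold and 1.43-fold. No test of this difference between groups was possible, since 4 arrays leave no spread for it.

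**Figure D3:**
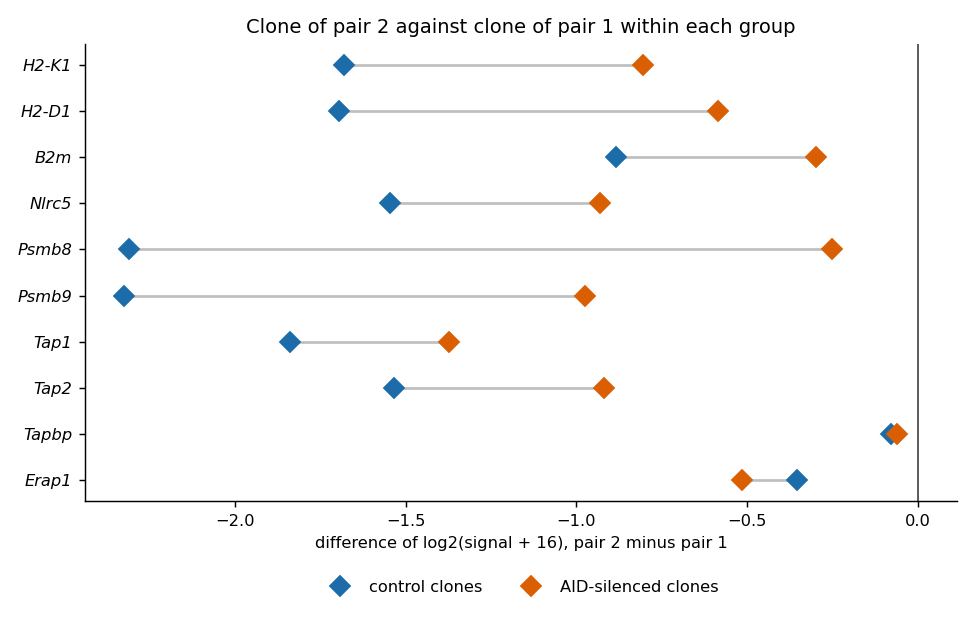
Difference of log2(signal + 16), clone of pair 2 minus clone of pair 1, for each class I gene, in control clones (blue) and AID-silenced clones (orange), each from 1 array per clone. All points lie below 0, and the control point is the lower one for every gene but Erap1.

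The difference between the pairs leaned on single clones. Without the AID-silenced clone of pair 2, so that the lowest clone alone stood for pair 2, limma called 11 class I probe sets, 7 of H2-D1, 3 of H2-K1 and 1 of Psmb9, where it called 59 of all 22519 probe sets, a background of 0.262%. H2-K1 then differed by −1.75 (limma adjusted p = 0.0355). When the control clone of pair 2 was left out instead, none was called, and the differences were −0.74 for H2-K1, −0.52 for H2-D1, −0.61 for Psmb8, −0.66 for Nlrc5 and −0.19 for B2m. Psmb9 was at −1.04. Tap1 was at −1.31 and Tap2 at −1.03 with that clone left out.

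The comparison the study was built on, AID-silenced against control clones, gave no call for any class I probe set. Limma called 2 of 22519 probe sets at an adjusted p under 0.05, a background of 0.00888%, and 0 of the 23 class I probe sets, of which 0 also had an unadjusted p under 0.05, against a background of 3.49%. With the pair as a block 8 probe sets were called, a background of 0.0355%, again with 0 of the class I probe sets. In that blocked fit 4 class I probe sets had an unadjusted p under 0.05, against a background of 7.63%, and the lowest adjusted p was 0.541, for Nlrc5. Without the block, every class I probe set had a limma adjusted p of 0.9996.

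The group means differed by 0.57 ± 0.58 for H2-K1, 0.70 ± 0.56 for H2-D1, 0.51 ± 0.31 for B2m and 0.85 ± 0.57 for Nlrc5 (SE, n = 2 per group, log2, AID-silenced minus control). For Psmb9 the difference was 0.55 ± 0.78, for Psmb8 0.31 ± 0.72, for Tap1 0.35 ± 0.70 and for Tap2 0.08 ± 0.56. Tapbp at 0.20 ± 0.19 and Erap1 at −0.01 ± 0.28 completed the genes. For 6 of the 10 genes the standard error was as large as the difference or larger. The fit behind these values had no term for the pair, so the distance between pairs enters the standard errors. With the pair as a block, the standard errors of H2-K1, Psmb9 and Tap1 were 0.22, 0.34 and 0.25, below the differences. Those of Psmb8, Tap2 and Erap1 were 0.56, 0.25 and 0.19, still above the differences in size.

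The direction changed with the clone left out for most genes. Without the control clone of pair 2, the differences of H2-K1, H2-D1, Tap1, Tap2, Psmb8 and Psmb9 turned negative, to −0.27, −0.15, −0.57, −0.69, −0.85 and −0.61. Limma called 3 probe sets of H2-D1 as higher after silencing when the control clone of pair 1 was left out, and 146 of all 22519 probe sets were called in that fit, a background of 0.648%. H2-D1 then differed by 1.54 (limma adjusted p = 0.0459). Without the AID-silenced clone of pair 1, Tap1 and Tap2 were at −0.33 and −0.38. Nlrc5, B2m and Tapbp stayed above 0 with any clone left out. Their ranges were 0.08 to 1.63 for Nlrc5, 0.07 to 0.95 for B2m and 0.16 to 0.24 for Tapbp.

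Within pairs, the AID-silenced clone had the higher signal in both pairs for 6 genes, H2-K1, H2-D1, B2m, Tap1, Tapbp and Nlrc5, and no gene was lower in both. At the level of probe sets this held for 14 of 23, where the background was 27.8%, with 9 opposite and 0 lower in both pairs. In pair 1 the differences were small. H2-K1 differed by 0.13, H2-D1 by 0.14, B2m by 0.22 and Tap1 by 0.12, and the widest values were 0.55 for Nlrc5 and −0.72 for Psmb8.

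In pair 2 the same contrast was wider. H2-K1 was higher in the AID-silenced clone by 1.01, H2-D1 by 1.25, Nlrc5 by 1.16, Psmb9 by 1.22 and Psmb8 by 1.34. At least 2-fold higher levels in the AID-silenced clone of pair 2 were found at 12 of the 23 class I probe sets, against a background of 4.32%. A 2-fold difference in pair 1 was found at 0 of the 23, and its background was not computed. The 23 include repeated readings of the heavy chains. Counted by gene, the AID-silenced clone of pair 2 was at least 2-fold higher for 5 of 10. B2m followed with 0.80, Tap1 with 0.59, Tap2 with 0.39 and Tapbp with 0.21, and Erap1 was at −0.09. This contrast shares the control clone of pair 2 with the comparison of control clones above, so that a low level in that clone enters both. The control clone of pair 2 was the lowest of the 4 clones at 20 of 23 class I probe sets, against a background of 30.9%.

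**Figure D4:**
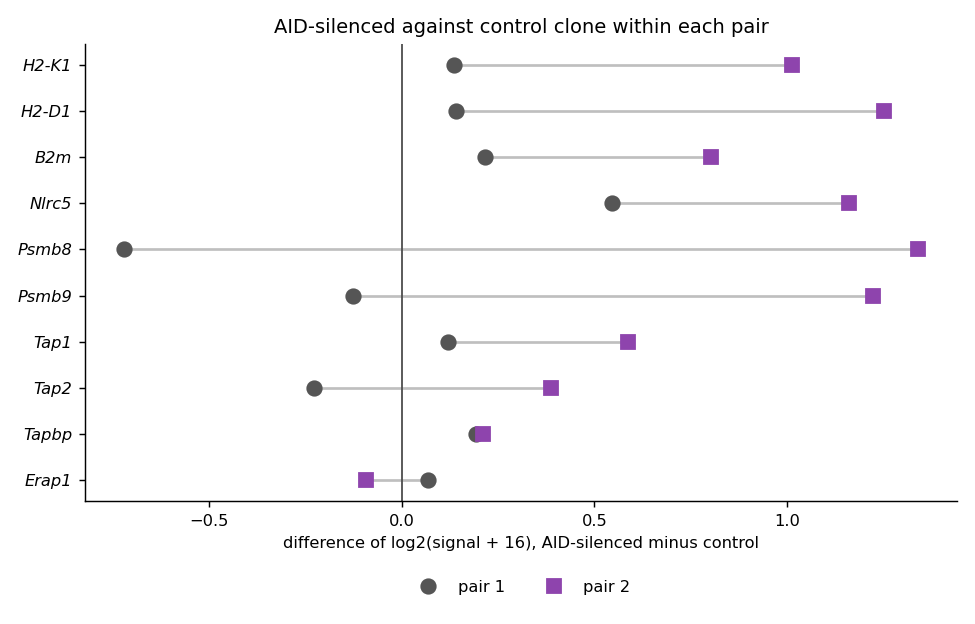
Difference of log2(signal + 16), AID-silenced minus control clone, for each class I gene in pair 1 (grey circles) and pair 2 (purple squares), from 1 array per clone. Pair 1 values lie between −0.72 and 0.55, and those of pair 2 reach 1.34 for Psmb8.

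The other probe sets of each gene were compared with the brightest. All 4 probe sets of H2-K1 placed both pair 2 clones below both pair 1 clones, with differences between −1.56 and −0.66, and all 4 gave the higher signal to the AID-silenced clone in both pairs. Of the 8 tested probe sets of H2-D1, 7 placed the pairs in that way, by −2.01 to −1.14. The eighth was dim, with 62.5 and 69.5 in pair 1 and 88.5 and 29.7 in pair 2, and its difference was −0.25. Only 4 of the 8 had the same sign of the silencing contrast in both pairs, and the differences of pair 1 lay between −0.11 and 0.14.

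Most heavy chain probe sets carry the suffix _x_at, which the array maker gave to probe sets that can bind several transcripts. H2-K1 and H2-D1 are near-identical over long stretches, BALB/c cells also transcribe an L heavy chain, and no probe set here carried its symbol. The share of each heavy chain in a signal was therefore not tested. The tested H2-D1 probe set without that suffix had signals of 2213 and 2053 in pair 1 and 383 and 1084 in pair 2, and differed by −1.70 ± 0.46 between pairs (SE, n = 2 per pair, limma adjusted p = 0.268). Both tested probe sets with several symbols, one of them listing H2-K1 and H2-D1 together at 4909 and 4402 in pair 1 and 907 and 2163 in pair 2, had the same order of pairs.

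**Figure D5:**
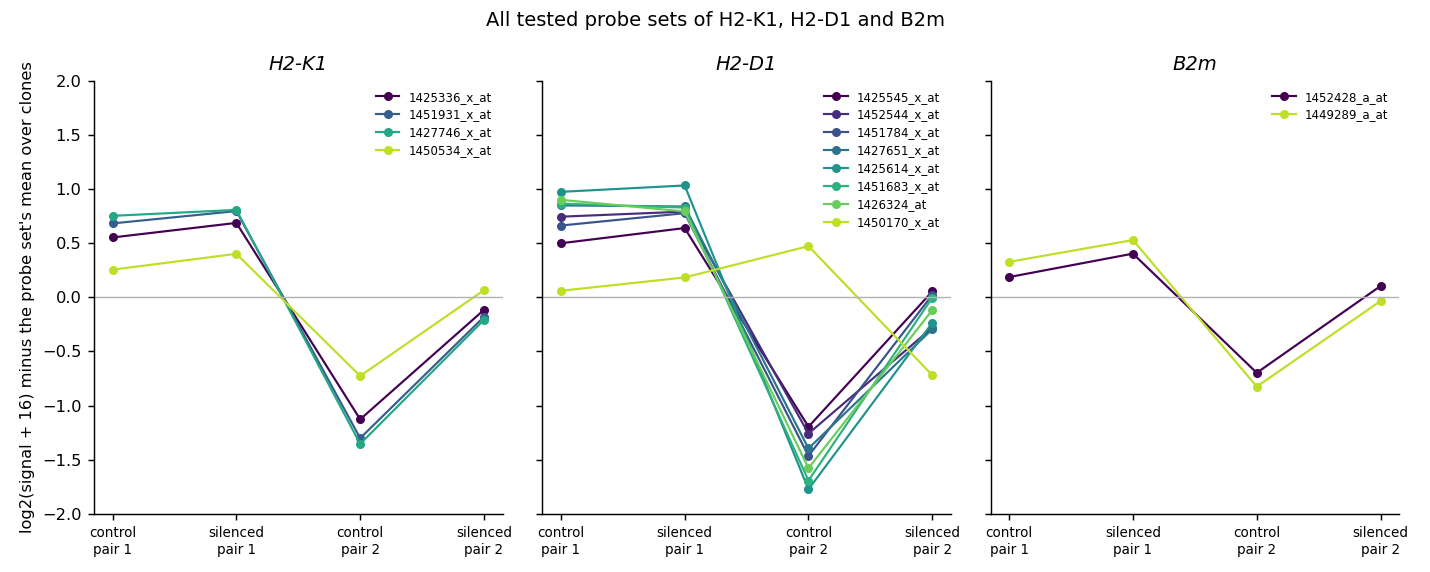
Log2(signal + 16) minus the mean over clones for each tested probe set of H2-K1, H2-D1 and B2m, 1 line per probe set, over the 4 clones. All lines but that of the dimmest H2-D1 probe set have their low point in the control clone of pair 2.

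The second probe set of Tapbp was at 0.34 ± 0.21 between pairs, opposite in sign to the first, and both gave small positive values for the silencing contrast in both pairs. The second Erap1 probe set, with 266 in the control clone of pair 1 and 124 to 149 in the other clones, placed the control clone of pair 2 lowest. Of the 5 untested dim probe sets, 3 belonged to Tap1, and the brightest of these followed the first Tap1 probe set, with 75.2 and 82.2 in pair 1 and 20.9 and 36.2 in pair 2. The dimmest Tap1 probe set did not place both pair 2 clones below both pair 1 clones. The remaining Tap1 probe set did, under the highest bacterial control on every array. The other untested probe sets belonged to H2-D1 and Psmb8, and neither placed the pairs in that way. The Psmb8 probe set had 63.1 and 19.7 in pair 1 and 20 and 51.8 in pair 2.

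Wider lists of the pathway were described beside the 10 genes, with no list called by a test. Over all 10475 tested genes, 29.3% had both pair 2 clones below both pair 1 clones, and 2038 genes had both above. The AID-silenced clone was the higher one in both pairs for 2800 and the lower one for 2876. The median difference between pairs over these genes was −0.07. No gene of any list passed the limma threshold in either comparison.

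In the peptide loading list 9 of 10 genes were tested. Tap1, Tap2 and Erap1 were lower in both pair 2 clones (33.3%, near the 29.3% of all tested genes), while 4 were higher. The lectin chaperones Calr and Canx, the oxidoreductase Pdia3 and the luminal chaperone Hspa5, which serve the folding of many secreted proteins beside class I, made up those 4. Pdia3, part of the loading complex, had 7995 and 9201 in pair 1 and 16523 and 13364 in pair 2. Calr had 13669 and 17139 in pair 1 and 22584 and 21430 in pair 2. Tapbpl, a tapasin relative that edits peptides, had 1062 and 1140 in pair 1 and 1105 and 1452 in pair 2. These ER chaperones had higher signals in pair 2, where transporters and heavy chains had lower ones. The list median was 0.20 between pairs.

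Among immunoproteasome genes 5 of 6 were tested, with Psmb8 and Psmb9 lower and Pomp, the assembly chaperone, higher in both pair 2 clones. Psmb10, the remaining inducible catalytic subunit, took another order, with 4351 and 1710 in pair 1 and 3340 and 3385 in pair 2. Psme1, a subunit of the PA28 activator, was nearly level, at 17914 and 17107 in pair 1 and 17682 and 15934 in pair 2. The constitutive catalytic subunits Psmb5, Psmb6 and Psmb7 were all higher in both pair 2 clones, by 0.23, 0.37 and 0.36. These 3 and Psme3, a subunit of the nuclear PA28 activator, were lower in both AID-silenced clones, by at most 0.29 within a pair.

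Of the regulators of class I transcription, 11 of 14 were tested, and 6 had both pair 2 clones below both pair 1 clones (54.5%). These were Nlrc5, the RFX subunits Rfx5 and Rfxank, Nfya, Creb1 and Irf2. Nlrc5 had the widest difference between pairs in this list. Irf2, an interferon regulatory factor, had signals of 374 and 271 in pair 1 and 218 and 116 in pair 2, and was lower in both AID-silenced clones. Irf1, the inducible activator, had 721 and 754 in pair 1 and 538 and 764 in pair 2. Nfyc was higher in both pair 2 clones, by 0.56.

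Of the genes of interferon sensing, 8 of 10 were tested and 4 were lower in both pair 2 clones. Stat2, a subunit of the factor that interferon alpha and beta activate, had 429 and 475 in pair 1 and 199 and 275 in pair 2. Its partner Irf9 and the kinase Tyk2 were lower in pair 2 by 0.50 and 0.40. Ifnar2, a receptor chain, had 2346 and 5158 in pair 1 and 4727 and 2611 in pair 2, so the pairs went in opposite directions. Jak2 had 696 and 945 in pair 1 and 743 and 373 in pair 2.

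Of 17 nonclassical class I genes and partners of B2m, 9 were measured and 5 tested. Mr1, which presents vitamin B metabolites, had 517 and 413 in pair 1 and 142 and 165 in pair 2, a difference of −1.50 between pairs (limma adjusted p = 0.245, n = 2 per pair). H2-M3, which presents formylated peptides, had 2664 and 4151 in pair 1 and 1715 and 2852 in pair 2, and was higher in both AID-silenced clones by 0.64 and 0.73. H2-T3 and H2-T24 ran the other way between pairs, H2-T3 with 28.1 and 40.5 in pair 1, the first of them under the highest bacterial control, and 114 and 119 in pair 2. Cd1d1, which presents lipids, had 104 and 73.7 in pair 1 and 87.6 and 129 in pair 2.

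Position on the chromosome was also described. In the RefSeq gene table H2-K1, H2-D1, Tap1, Tap2, Tapbp, Psmb8 and Psmb9 lie on chromosome 17, and Psmb9, Tap1, Psmb8 and Tap2 are direct neighbours among coding genes, while B2m lies on chromosome 2, Nlrc5 on 8 and Erap1 on 13. Of 46 other tested genes between Tapbp and H2-D1, 18 had both pair 2 clones below both pair 1 clones (39.1%, against 29.3% of all tested genes), with a median difference between pairs of −0.13. Among them the class II chain H2-Ab1 had 452 and 45.7 in pair 1 and 29.0 and 4.3 in pair 2, where it was not above the highest bacterial control. Clic1, a chloride channel protein, was at −1.11. Slc39a7, a zinc transporter next to the class II genes, and Brd2, a bromodomain protein, were higher in pair 2, by 0.64 and 0.69. These 4 were named after their values were seen.

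Finally, the tested genes whose pattern over the 4 clones was closest to that of H2-K1 were ranked by the root mean square distance of log2 values centred on their mean. Of 10474 other genes the 5 closest were Stat5a at 0.0358, Lyl1 at 0.0487, Foxq1 at 0.0529, Diras1 at 0.0692 and Oip5os1 at 0.0791. Stat5a, a transcription factor of cytokine receptors, had 392 and 430 in pair 1 and 113 and 228 in pair 2. H2-D1 ranked 10 in this order, Nlrc5 34, Psmb9 97 and Tap1 98. Tap2 ranked 135, Psmb8 284, B2m 322, Erap1 2086 and Tapbp 3637. With 4 clones such likeness is a description.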

How the data were processed

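Gene expression was measured in 4 J558 clones on Affymetrix Mouse 430 2.0 arrays, and groups and pairs were taken from the sample titles. The deposited values are MAS5 intensity values on a linear scale, as named in the submitters' processing notes. Their 2% trimmed mean was checked and is 500 on every array, so no further scaling was applied, and 0 columns of values were left unused. MAS5 subtracts mismatch probes, which makes dim signals vary strongly.

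After leaving out 64 control probe sets, log2(signal + 16) was computed and the brighter part, a share of 0.5 by mean log2 value, was tested (22519 probe sets, mean signal above 49.4). Genes were named from the platform annotation where a probe set had 1 symbol, which held for 34945 probe sets, while 932 had several and 9160 were unnamed. Limma 3.58.1 (R 4.3.3, statmod 1.5.0; lmFit and eBayes with trended, robust prior) compared groups and, in a second fit, pairs on all 4 arrays, with Benjamini-Hochberg adjustment over all tested probe sets and a threshold of 0.05. The step was tested on simulated data. Plots were made in matplotlib 3.10.9.

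The labels present the clones as pairs without saying what a pair shares. They were taken as pairs on that basis, and the change from pair 1 to pair 2 among control clones correlated with that among AID-silenced clones at r = 0.306 across tested probe sets, which are not independent. Alternatives were quantile and median scaling, pseudocounts of 1 and 64, no filter and a stricter filter that kept a share of 0.25, a plain prior, the pair as a block, other choices among a gene's probe sets and leaving out each clone.

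The class I genes and lists were chosen with earlier results of these data known. All 10 genes were named. From each wider list up to 4 genes with the widest silencing contrast and the same sign in both pairs, and up to 2 with the widest difference between pairs, were eligible. Also eligible were the 5 genes closest to H2-K1 and genes at least 2-fold apart in opposite directions in the pairs, of which there were 0. Calr, Pdia3, Hspa5, Psmb10, Pomp, Rfxank, Nfya, Nfyc, Creb1, Irf9, Ifnar2, H2-T24, Cd1d1 and the chromosome 17 neighbours fall outside this rule and were chosen after seeing their values. The level of the silenced gene was not analysed here.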

Additional observations from a re-analysis of the deposited data

Results flagged for a closer look

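For 4 of the 10 genes the AID-silenced and the control clone differed in opposite directions in pairs 1 and 2, and the difference between the pairs was not tested, since 4 arrays leave no spread for it. AID-silenced minus control was −0.72 in pair 1 and 1.34 in pair 2 for Psmb8. Psmb9 gave −0.13 and 1.22, and Tap2 gave −0.23 and 0.39. Erap1 gave 0.067 and −0.093, the smallest of these contrasts. The pairs differ in the control clone as well as in the AID-silenced clone, and for Psmb8, Psmb9 and Tap2 the control clone of pair 2 had the lowest signal of all 4.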

How the results depend on the processing

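The number of class I probe sets called for AID-silenced against control clones was 0 at every alternative that kept all 4 clones, and 0 to 3 when a clone was left out, where the fit with 3 called 146 of all 22519 probe sets and the fit without the control clone of pair 2 called 52, with 0 of the class I probe sets. For pair 2 against pair 1 it was also 0 with all 4 clones, and 0 to 11 when a clone was left out, where the fit with 11 called 59 of all probe sets. The replicate block, with the pair as a term, changed no call of a class I probe set, and 0 were called for either comparison. Of the 10 genes, 6 had the same sign in both pairs in the main setting and under the scalings, pseudocounts and filters tried. It was 5 of 9 with the mean of probe sets, where Tap1 fell under the filter, and 4 of 9 without _x_at and _s_at probe sets, where H2-K1 has none. With all clones kept, the one change of direction was that of Tapbp between pairs, to 0.14 with the mean of its probe sets. The mean of probe sets also moved Psmb8 from −1.28 to −0.69 between pairs, which is under 2-fold, and its AID-silenced minus control value from 0.31 to 0.096. It moved the latter from 0.70 to 0.44 for H2-D1 and from −0.01 to −0.20 for Erap1. Quantile scaling moved Tap2 from 0.08 to 0.049 and, between pairs, Tapbp from −0.07 to −0.14. When a clone was left out, AID-silenced minus control ran from −0.27 to 1.41 for H2-K1, −0.15 to 1.54 for H2-D1, −0.57 to 1.27 for Tap1, −0.69 to 0.85 for Tap2, −0.85 to 1.46 for Psmb8, −0.61 to 1.71 for Psmb9 and −0.27 to 0.24 for Erap1. Pair 2 minus pair 1 ran from −0.17 to 0.036 for Tapbp. Of the 28 class I probe sets, 5 were too dim to test. Where a group kept 1 clone, that clone was assumed to vary like the others.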
